A study of Mus musculus with 96 samples.

Results

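CC013 is one of 42 Collaborative Cross strains, recombinant inbred mice that mix the genomes of several founder strains, whose cultured osteoblasts were profiled by total RNA sequencing. It was represented by 2 of the 96 samples, taken by their strain label, and these were set against 38 other strains that had at least 2 libraries (90 in all), each strain counting once in the mean. One CC030 sample had been sequenced again, so its runs were averaged and 95 independent libraries remained, 93 of them from strains other than CC013. Strain was the only difference the labels give: every sample came from skull caps of pups aged 3 to 5 days, grown for 48 h and then held for 10 days in differentiation medium, which supplied beta-glycerol phosphate and ascorbic acid. No sex, litter or batch is stated, nor whether samples of a strain were separate animals or cultures, so p-values measure only the spread between these samples, which may be technical.

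CC013 was chosen by its measured values, since its collagen genes were low and C1s1 was close to 0. The values of C1s1, the collagens and the small proteoglycans are therefore given as a description with no test, and all other genes were tested across the whole table. Since these values chose the strain, they are no check of it: 30 of 36 collagen genes lay below the mean of the other strains and 6 above it. Levels are scaled TPM, a length-corrected relative abundance (TPM) divided by a factor per library. A difference is CC013 minus the other strains on the scale log2(scaled TPM + 0.5), with its standard error (SE), and understates changes of genes with low values. A gene was called at an adjusted p under 0.05 (limma, Benjamini-Hochberg over 15760 genes and 39 strains).

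The first component of complement, C1, is a complex of the recognition protein C1q with the proteases C1r and C1s. Once C1q is bound, C1r cleaves C1s, and C1s cleaves C4 and C2, which leads to cleavage of C3. C1 inhibitor, the product of Serping1, blocks both proteases. Stromal cells make C1r, C1s and C1 inhibitor, whereas C1q is made mainly by macrophages. Type I collagen, a trimer of products of Col1a1 and Col1a2, is the main protein of bone matrix laid down by osteoblasts.

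The mouse genome carries a near copy of each protease gene in the same gene cluster, so the sequences are shown before the levels. C1ra and C1rb, both on chromosome 6, shared 2076 of 2121 aligned coding columns (97.9%), and C1s1 and C1s2 shared 1974 of 2064 (95.6%). The lines below give the 120 bases of each coding sequence in which the copies of a pair differ most, from the GENCODE transcripts (GRCm38), with differing bases in capitals. They cover coding bases 1761 to 1880 of C1ra and 1758 to 1877 of C1rb, with 13 differences, and 1463 to 1582 of C1s1 and 1445 to 1564 of C1s2, with 24 differences.
C1ra: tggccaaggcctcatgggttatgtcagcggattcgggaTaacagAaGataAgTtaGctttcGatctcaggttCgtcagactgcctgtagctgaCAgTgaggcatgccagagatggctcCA
C1rb: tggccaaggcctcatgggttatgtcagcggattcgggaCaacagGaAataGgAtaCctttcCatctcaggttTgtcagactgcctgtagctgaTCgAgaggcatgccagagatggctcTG
C1s1: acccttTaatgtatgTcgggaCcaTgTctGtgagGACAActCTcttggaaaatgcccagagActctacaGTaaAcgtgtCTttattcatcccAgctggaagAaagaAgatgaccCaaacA
C1s2: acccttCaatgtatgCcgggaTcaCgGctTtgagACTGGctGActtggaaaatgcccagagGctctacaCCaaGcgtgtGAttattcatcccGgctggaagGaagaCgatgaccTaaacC

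The likeness of C1ra and C1rb extended upstream. A stretch of 99 bases ending 1 base before the annotated start of C1ra (chr6:124512522-124512620, plus strand) matched 93 of 99 bases of a stretch that begins 250 bases before the start of C1rb (chr6:124570180-124570278, plus strand). Both are from RefSeq (GRCm38.p6), again with differing bases in capitals, and all sequences are of the reference strain, not of CC013.
C1ra upstream: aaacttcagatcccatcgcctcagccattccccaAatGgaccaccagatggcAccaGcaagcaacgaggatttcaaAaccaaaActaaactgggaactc
C1rb upstream: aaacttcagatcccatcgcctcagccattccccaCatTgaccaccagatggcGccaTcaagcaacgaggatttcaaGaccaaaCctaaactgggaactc

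The CC013 libraries were inside the range of the series in their general measures. Structural RNAs took 62.5% and 66.6% of TPM and nuclear protein-coding genes 31.8% and 28.7%, and 11172 and 11237 genes reached 1 TPM, where libraries of the series had 10783 to 12334. The distance between the CC013 libraries (1 minus Pearson's r over genes) was 0.0131, and 9 other strains had closer pairs. The nearest other library to each was the same CC005 library, at 0.0311 and 0.0273. Of 15760 genes, 1126 were called lower in CC013 (7.14%) and 1041 higher (6.61%), and CC013 ranked 23 of 39 strains from the fewest calls. With TPM as deposited, without scaling, 1223 were called lower and 448 higher. Both counts rested on the pair of libraries: without replicate 1 they were 389 and 478, and without replicate 2, 606 and 585.

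C1s1 was at or near 0 in CC013. Its level was 0.0755 scaled TPM in replicate 1 and was listed at 0 in replicate 2, whereas the 93 other libraries had 5.85 to 142, median 34.1. Neither CC013 library overlapped the others, and the strain next above it, CC005, had a mean of 13.6. All 5 annotated C1s1 transcripts were at or near 0, with 1 of them carrying the whole of the 0.0755. The difference was -5.96 ± 0.39 (log2, SE). C1s2, its near copy, was at 0.188 and 0.0760 in CC013, against 0 to 0.181 in the other libraries, and the sum of C1s1 and C1s2 was 0.2639 and 0.0760 against 5.85 to 142.0.

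For C1r, the copy that carried most of the level differed between CC013 and the other strains. C1ra was at 7.02 and 4.64 in CC013, against 20.5 to 143.2, median 54.3 in the other libraries, so both libraries lay below every other (difference -3.12 ± 0.25, adjusted p 6.1e-15). C1rb was at 32.5 and 24.3, against 0 to 0.247, median 0.0771, and both libraries lay above every other (difference 5.63 ± 0.09). C1rb reached the 0.5 TPM needed for a test in the CC013 libraries alone. Its call is therefore no support, and its p-value is not given. C1rb made up 82.3% and 84.0% of the summed level of the pair in CC013 and at most 0.319% in any other library. The sum itself was 39.6 and 29.0, inside the range of the other libraries, 20.5 to 143.4 (median 54.5), with 5 of 93 below both. Of the 31-base words of C1ra transcripts, 56.9% also occur in C1rb, so how the authors' pipeline split reads between them is uncertain. These values cannot tell RNA of C1rb from RNA of a C1ra allele whose sequence is nearer to C1rb.

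The genes around the cluster were inside the range of the other libraries. Pex5, a peroxisome import receptor, was at 13.4 and 13.8, against 10.6 to 17.9, median 13.8. Emg1, a ribosome biogenesis factor, was at 38.4 and 38.3, against 22.7 to 46.9, median 35.9. Clstn3, C1rl, Lpcat3 and Phb2 were inside their ranges as well, and none of these 6 neighbours was called (limma, adjusted p from 0.13 to 0.90). At an unadjusted p under 0.05, 1 was lower and 1 higher. C1rl, a C1r-like protease gene, was at 1.33 and 1.22, against 0.337 to 4.07, median 1.62.

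**Figure D1:**
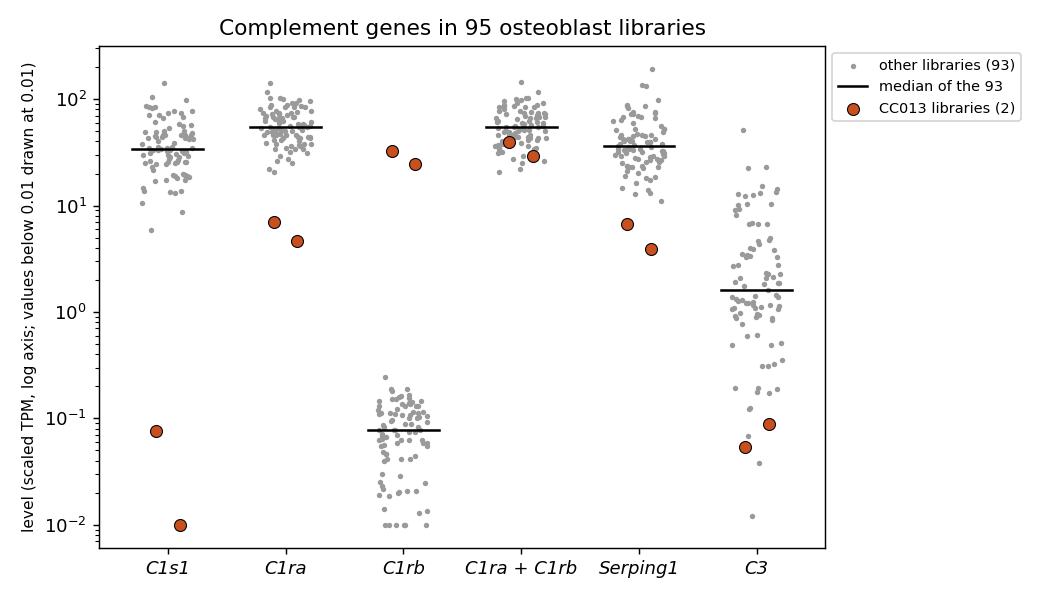
Levels of complement genes in 95 libraries (vertical axis, scaled TPM, log scale, values below 0.01 drawn at 0.01); grey points are the 93 other libraries, black lines their medians and orange points the CC013 libraries. CC013 lies below all others for C1s1, C1ra and Serping1 and above all others for C1rb, and inside the range for C1ra plus C1rb (39.6 and 29.0).

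Serping1, which encodes C1 inhibitor and lies on chromosome 2, was low in CC013 as well. It was at 6.71 and 3.95, against 11.1 to 193.1, median 36.1, and again neither CC013 library overlapped them (difference -2.75 ± 0.32, adjusted p 1.0e-09). It shares no 31-base word with another gene. The strains next above CC013 were CC025 at 14.1 and CC044 at 16.7. Over the alternative fits, those without 1 CC013 library among them, the difference of C1ra ran from -3.39 to -2.84. That of Serping1 ran from -3.10 to -2.28.

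Other members of the classical pathway were low as well. Of 11 in the list given a test, which leaves out C1s1, 7 were called lower, where 7.14% of all genes were. The 1 called higher was C1rb, which passed the filter only through CC013. The list score, the mean z-score of the members with C1s1 included, was -1.07 in CC013, rank 2 of 39 strains from the lowest. CC005 was lower, at -1.14. Since the strain was chosen on C1s1, this score is no check of the other members. C3, the central complement protein, was at 0.0542 and 0.0888 against 0.0122 to 51.5, median 1.61, with 2 other libraries below both (difference -2.15 ± 0.66, adjusted p 0.018). C4a, a close copy of C4b with which it can exchange reads, was at 0.451 and 0.385 against 0.189 to 3.42, median 0.819 (adjusted p 0.015). C2 and C4b were not called, at 4.3 and 4.42 and at 0.658 and 0.658. The C1q chain genes C1qa, C1qb and C1qc were at 9.09 and 14.6, 6.61 and 8.61, and 5.07 and 8.13, where the medians of the others were 37.7, 19.5 and 25.1. All 3 chains were called lower (differences -1.64, -1.39 and -1.85, adjusted p 0.00873, 0.034 and 0.00495), but the groups overlapped, with 10 to 17 other libraries below both. Without replicate 1 the list had 2 genes called lower, C1ra and Serping1, and without replicate 2 it had 4, which again lacked C1qb, C3 and C4a (adjusted p 0.11, 0.11 and 0.14).

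Of 19 other complement genes tested, 6 were called lower and 1 higher, where 7.14% and 6.61% of all genes were. Cd55, a membrane regulator that speeds decay of the C3 convertase, was the higher one at 3.85 and 4.62, against 0.759 to 6.32, median 1.86 (difference 0.96 ± 0.27, adjusted p 0.00885), and lost the call without replicate 2 (adjusted p 0.14). Cfp, the properdin gene, was at 0.878 and 1.58 against a median of 4.64 (difference -1.62 ± 0.34, adjusted p 3.9e-04). The anaphylatoxin receptor genes C3ar1 and C5ar1 were at 1.6 and 2 and 0.272 and 0.49, against medians of 4.74 and 1.31 (adjusted p 0.012 and 0.00817). Without replicate 1 Cfp, C3ar1 and C5ar1 lost their calls (adjusted p 0.054, 0.15 and 0.15), and without replicate 2 C3ar1 did (0.058).

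Several of these genes are expressed by macrophages, and macrophage markers were low in CC013. Of 15 markers, 11 were called lower, where 7.14% of all genes were, with a median difference of -1.38. Adgre1, which encodes F4/80, was at 2.17 and 2.95, against 0.939 to 151, median 14.2 (difference -2.11 ± 0.47, adjusted p 7.2e-04). Csf1r, the receptor that macrophages need for survival, was at 1.94 and 2.06 against 0.424 to 106, median 7.56 (adjusted p 0.00153). The summed level of the 15 markers was 145 and 164, against 30.7 to 5145 (median 431), and 14 other libraries were below both. No marker was at 0 in both CC013 libraries. The macrophage score, the mean z-score of the members, ranked 6 of 39 strains from the lowest. CC005, the lowest strain in that score, had strain means of 13.6 for C1s1, 26.6 for C1ra and 19.1 for Serping1, all above CC013. Its C1s1 and C1ra means were the lowest of all strains other than CC013. In bulk samples fewer cells of a type and less RNA per cell cannot be told apart, and the part of macrophages in the complement values was not tested. Without replicate 1, 3 markers were called lower (Csf1r, Adgre1 and Itgam), and without replicate 2, 6, these 3 among them.

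The osteoclast list had 4 of 6 tested members called lower, where 7.14% of all genes were, and its score was the lowest of 39 strains. Mmp9, a matrix metalloproteinase of osteoclasts, was at 0.174 and 0.208 against 0.084 to 9.42, median 1.83 (difference -1.73 ± 0.45, adjusted p 0.00492), with 3 other libraries below both. Ctsk, the collagen-cleaving cathepsin K, was at 161 and 144 against 68.3 to 384, median 210.1 (adjusted p 6.5e-04). Calcr, the calcitonin receptor gene, was listed at 0 in both CC013 libraries, which by itself does not set CC013 apart. Only 6 of the 10 listed osteoclast genes were high enough in the series to be tested. Without replicate 1 only Ctsk was called. Without replicate 2, limma called 0 of the 6 (adjusted p 0.077 for Ctsk and 0.055 for Mmp9), and 3 were lower at an unadjusted p under 0.05.

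Some antigen presentation and interferon genes were called lower, where 7.14% of all genes were. Of 14 MHC and antigen presentation genes, 5 were called: the class I genes H2-K1, H2-D1 and H2-T23, the peptide loading gene Tapbp and the class II gene H2-Ab1. H2-K1 was at 28 and 26.6 against 15.1 to 149.9, median 71.9 (difference -1.23 ± 0.18, adjusted p 6.0e-07) and H2-T23 at 5.77 and 6.41 against 4.41 to 83.5, median 20.03 (difference -1.58 ± 0.26, adjusted p 7.2e-06). Class I genes share sequence with other genes, so their split is uncertain. H2-Ab1 was uncertain as well, since it ran against a transcript of unmatched identifier (r -0.80). Summed with that transcript its difference was -1.76. Tapbp lost its call without replicate 1 (adjusted p 0.25) and without replicate 2 (0.11), and H2-Ab1 without replicate 1 (0.27). Against the 4 strains with the nearest title numbers the difference of H2-Ab1 turned to 0.26. Of 18 interferon response genes, 3 were called lower, Mx2, Ifit3 and Oas1a, against that same 7.14% of all genes. Mx2, an antiviral GTPase gene, was at 0.0413 and 0.0362 against 0 to 91.6, median 1.15 (difference -2.36 ± 0.34, adjusted p 3.5e-07). Oas1a lost its call without replicate 1 (adjusted p 0.24) and without replicate 2 (0.076), and it and Ifit3 share sequence with neighbouring copies.

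The collagens, for which the strain was chosen, were low by small amounts across many genes. The median difference of the 11 fibrillar collagens was -0.40, with 10 below the mean of the other strains, and that of 25 other collagens was -0.42, with 20 below. Over all genes the median was -0.03 and 55.2% lay below. The score over the 36 collagens was -0.72, the lowest of 39 strains, and CC037 was next at -0.68. The score of the fibrillar genes alone ranked 4 of 39 from the lowest, and that of the other collagens 3.

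Among the fibrillar collagens Col1a1 stood lowest. It was at 714 and 1310.0 scaled TPM, against 885 to 5143, median 2416, so replicate 1 was below every other library and replicate 2 was not (difference -1.19 ± 0.36). The CC013 strain mean of 1012 was the lowest of 42, before CC071 at 1205. Its partner Col1a2 was at 4501 and 4606 against 3324 to 11775, median 7038 (difference -0.60 ± 0.18), with 5 other libraries below both. The ratio of Col1a2 to Col1a1 was 6.30 in replicate 1, above the 2.00 to 5.88 of all other libraries, and 3.52 in replicate 2, near their median of 3.10. The libraries therefore differed more in Col1a1 than in Col1a2. Col3a1, the fibrillar collagen of soft connective tissue, was at 1177 and 1089 against 785 to 6027, median 1452, and 11 other libraries were below both. Col27a1, a minor fibrillar collagen, was at 0.863 and 0.92 against 0.868 to 4.87, median 1.91. Col5a1 and Col5a2, which regulate fibril diameter, were near the middle, at 383 and 432 and 815 and 658 against medians of 448 and 824. Col2a1, the cartilage collagen, was the fibrillar gene above the mean of the others, at 8.04 and 10.9 against a median of 9.

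**Figure D2:**
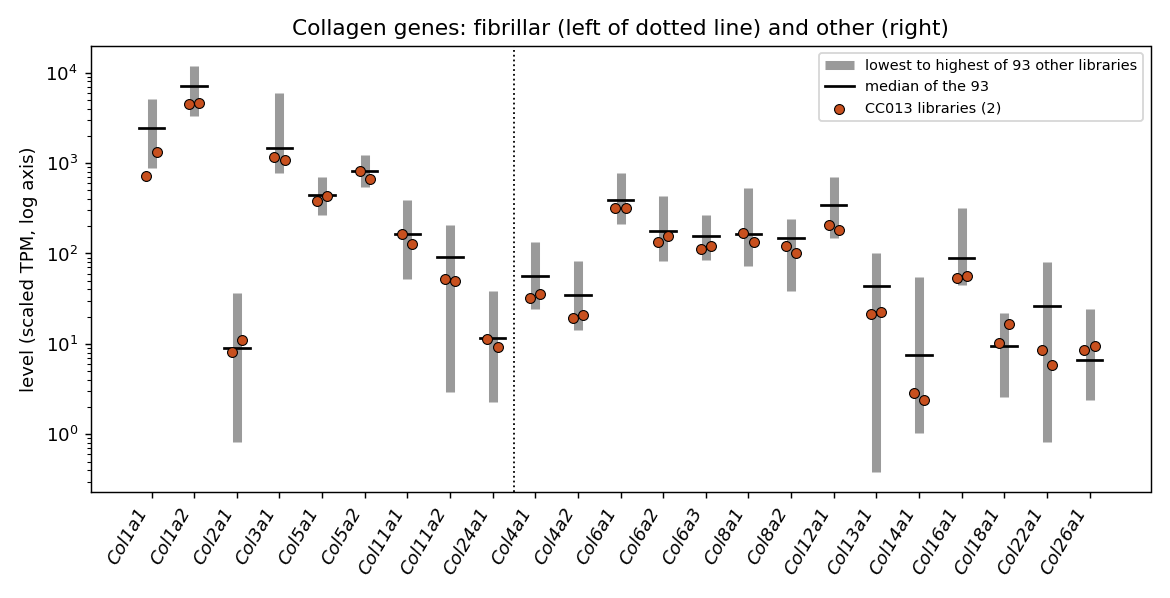
Levels of 23 collagen genes whose median over the other libraries was at least 5 scaled TPM (vertical axis, log scale), 9 fibrillar to the left of the dotted line. Grey bars run from the lowest to the highest of 93 other libraries, black lines are their medians and orange points the CC013 libraries, which sit below most medians and above them for Col18a1 and Col26a1.

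The other collagens ranged from -1.60 to 0.43. Col22a1, found at tissue junctions, was at 8.46 and 5.83 against 0.83 to 79.8, median 26.4 (difference -1.60 ± 0.47), and Col14a1, which associates with fibrils, at 2.83 and 2.43 against 1.04 to 55, median 7.53 (difference -1.31 ± 0.52). Both overlapped the lower part of the others. Col12a1, also fibril-associated, was at 204 and 182 against 148 to 697, median 340.0, with 1 other library below both. Col16a1 was at 53.6 and 55.7 against a median of 89.7, and the basement membrane genes Col4a1 and Col4a2 were at 31.9 and 36 and 19.5 and 20.8 against medians of 56 and 34.6. The 3 type VI genes Col6a1, Col6a2 and Col6a3 had smaller differences, -0.29, -0.29 and -0.38. Col13a1 was at 21.6 and 22.3 and Col8a1 and Col8a2 were at 167.4 and 136 and 119.7 and 101, each inside the range of the others. Col18a1 and Col26a1 were above the mean of the others, at 10.1 and 16.7 and 8.5 and 9.49 against medians of 9.57 and 6.56.

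The small leucine-rich proteoglycans, which bind collagen fibrils, were mixed. Of 12, 9 lay below the mean of the other strains, with a median difference of -0.26. Fmod, fibromodulin, was at 70.4 and 61.8 against 36 to 236, median 105 and Dcn, decorin, at 292 and 245 against 152.5 to 956, median 323. Omd, osteomodulin of bone, was above most, at 86.2 and 59.3 against 15 to 112, median 48.5, and Lum, lumican, was at 852 and 755 against 371 to 1322, median 687.

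Non-collagen matrix genes, which the choice of the strain did not use, were lower in part. Of 38, 9 were called lower, against 7.14% of all genes called lower, and the median difference was -0.37. Their score was -0.68, rank 3 of 39 strains from the lowest, and CC005 was the lowest at -0.77. Tnc, the matricellular protein tenascin C, was at 109.8 and 97.7 against 101 to 527.5, median 244 (difference -1.21 ± 0.20, adjusted p 1.0e-05). No other library was below both CC013 libraries, and replicate 2 was below all of them. Postn, periostin, averaged 162.5 ± 33.3 (SD, n = 2) against 96 to 729.6, median 348 (difference -1.09 ± 0.20, adjusted p 4.9e-05), with 3 other libraries below both. Thbs4, thrombospondin 4, was at 0.439 and 0.674 against a median of 2.17 (difference -1.27 ± 0.29, adjusted p 0.00125). Sparc, osteonectin, one of the most abundant mRNAs of these cultures, was at 3319 and 2591 against 2062 to 5401, median 3829.9 (difference -0.37 ± 0.12, adjusted p 0.029). Fbln7, Ecm2, Mfap4, Tgfbi and Emilin1 were the others. The count was 4 without replicate 1 and 4 without replicate 2, with Tnc and Postn called in both, while Thbs4 lost its call without replicate 1 (adjusted p 0.062) and Sparc without replicate 2 (0.52). Fn1, fibronectin, was not called, at 273 and 321 against 171 to 625, median 360.7.

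The machinery that makes and crosslinks collagen had few calls. Of 34 genes, 2 were called lower, near the 7.14% of all genes, and the median difference was -0.07. Bmp1, the protease that removes the C-terminal propeptide of procollagen, was at 22 and 26.2 against 23.1 to 88.1, median 39.5 (difference -0.72 ± 0.13, adjusted p 4.6e-05), so replicate 1 was below all other libraries and 1 of them was below replicate 2. Adamts3, a procollagen N-proteinase gene, was at 0.248 and 0.154 against 0.186 to 2.63, median 0.588 (difference -0.65 ± 0.15, adjusted p 0.00155) and lost its call without replicate 2 (adjusted p 0.077). Serpinh1, the collagen chaperone HSP47, was at 1249.5 and 1338 against a median of 1297, and Lox, lysyl oxidase, at 219 and 271 against 246. Neither was called.

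Genes that break collagen down, or block its breakdown, went both ways. Of 17, 5 were called lower and 3 higher, where 7.14% and 6.61% of all genes were. Fap, a membrane protease of activated fibroblasts, was at 9.21 and 6.98 against 5.8 to 59.1, median 21.2 (difference -1.40 ± 0.26, adjusted p 4.9e-05). Mrc2, an endocytic collagen receptor, was at 56.6 and 59 against 49.7 to 174, median 90.1 (adjusted p 0.027), and Mmp23 was at 42.8 and 48.3 against 33.3 to 171, median 78.2 (adjusted p 0.00152). Mmp9 and Ctsk are given above with the osteoclast list. Timp2, an inhibitor of metalloproteinases, was higher at 227 and 306 against 122 to 311, median 160.3 (difference 0.66 ± 0.09, adjusted p 1.4e-07), and 84 other libraries were below both. Timp3, another inhibitor, was at 277 and 238 against 77.6 to 455, median 145 (difference 0.79 ± 0.25, adjusted p 0.023). Mmp16, a membrane-type metalloproteinase, was at 28.5 and 24.6 against 9.56 to 35.2, median 18.7 (adjusted p 0.015). Without replicate 1 or without replicate 2, 2 genes were called lower. Timp3 lost its call in both cases (adjusted p 0.21 and 0.079) and Mrc2 as well (0.17 and 0.12), Mmp16 and Mmp23 without replicate 1 (0.24 and 0.067).

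Few markers of osteoblasts themselves were called. Of 23 osteoblast and mineralization genes, 1 was called higher and 2 lower (6.61% and 7.14% over all genes), the median difference was 0.04, and the score ranked 16 of 39. Alpl, alkaline phosphatase, was at 176 and 159.6 against 19.8 to 396, median 172.99 (adjusted p 0.97). Ibsp, bone sialoprotein, was at 2380.5 and 2357 against 51 to 5479, median 1619 (adjusted p 0.40), and Sp7, osterix, at 35.9 and 30.1 against 4.2 to 61.4, median 36.5 (adjusted p 0.92). Of the 23 genes, 9 lay below the mean of the other strains and 14 above. The largest negative difference was that of Cadm1, at 23.8 and 16.3 against 1.44 to 227, median 56.4 (difference -1.28 ± 0.47, limma adjusted p 0.053, not called). Bglap, an osteocalcin gene, was at 565 and 321 against 6.70 to 2517, median 801 (limma adjusted p 0.73). Markers of the labelled cell type were thus present, and those given here were inside the range of the other libraries. Msx2, a homeobox gene of the skull, was higher at 5.63 and 5.79 against 1.9 to 6.17, median 3.2 (difference 0.73 ± 0.14, adjusted p 1.1e-04), with 92 libraries below both. Runx2, the master transcription factor of osteoblasts, was lower at 7.48 and 8.66 against 4.74 to 23.9, median 13.4 (difference -0.66 ± 0.22, adjusted p 0.031), and lost the call without replicate 1 (adjusted p 0.25) and without replicate 2 (0.093). Dlx6 was at 2.98 and 1.25 against 0.99 to 9.63, median 4.47 (adjusted p 0.013), and lost its call without replicate 2 (0.50).

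**Figure D3:**
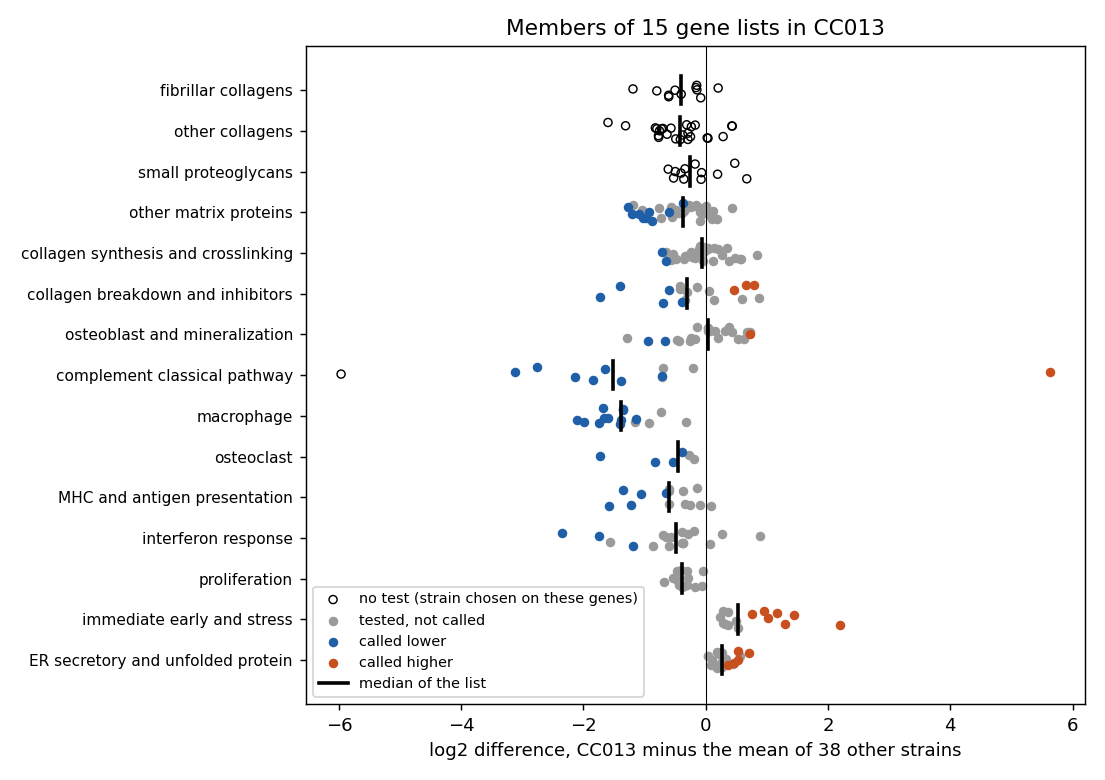
Log2 difference of CC013 from the mean of 38 other strains (horizontal axis) for the members of 15 gene lists; each point is a gene, open where no test was given, blue where called lower and orange where called higher, and black bars are list medians. Collagen, matrix, complement and macrophage medians lie below 0 (-0.37 to -1.52, the last with C1s1 included), the osteoblast median at 0.04, and the immediate early and secretory medians at 0.53 and 0.26.

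Immediate early genes, which are transcribed within minutes of a stimulus, were high in CC013. Of 15, 7 were called higher, against 6.61% of all genes called higher, all 15 lay above the mean of the others, and the median difference was 0.53. Fos was at 26.9 and 32.2 against 2.49 to 53, median 4.85 (difference 2.19 ± 0.29, adjusted p 4.0e-08), with 86 other libraries below both and 5 above both. Egr2 was at 6.05 and 6.13 against 0.904 to 9.91, median 1.6 (difference 1.44 ± 0.17, adjusted p 3.8e-09). Ier2 was at 22.6 and 34.9 and Dusp1, a phosphatase that turns off MAP kinases, at 9.1 and 8.87, against medians of 10.2 and 3.46 (differences 1.30 and 1.16). Egr1, Junb and Klf2 were the other 3, at 2.88 and 4.06, 30 and 55.5 and 6.99 and 12.1, and replicate 2 was the higher library in each of them. Without replicate 2, Egr1, Junb and Klf2 lost their calls (adjusted p 0.091, 0.39 and 0.56), and without replicate 1, 9 genes were called.

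High levels of these genes also occurred in other strains, 3 of them among the 4 whose samples carry the nearest title numbers. What that number stands for is not stated in the labels. The 4 strains with all numbers within 50 of those of CC013 are CC044, CC045, CC053 and CC074, and the immediate early score was 1.92 in CC045, 1.31 in CC013, 1.02 in CC074, 0.79 in CC044 and -0.40 in CC053. Among the scored strains with numbers farther away the highest scores were 0.84 in CC030 and 0.55 in CC061. Scores were given only to strains of at least 2 libraries, so CC011, CC024 and CC035 have none. Their numbers are also farther away. Fos, Egr2 and Ier2 were at 22.2, 6.51 and 27.6 in CC024 and at 15.9, 5.81 and 19.9 in CC035. In CC011 they were at 4.07, 1.36 and 8.56. High levels were thus not confined to strains with near numbers. In CC030 Fos was at 41.7 in replicate 1 and 4.77 in replicate 2, and Ier2 was at 7.89 and 8.24, below the median of the other libraries. In CC061 Fos was at 15.8 and 13.8 and Ier2 at 20.7 and 21.7. Whether the numbers have a part in these values was not tested. Against these 4 strains alone 2 of the 15 genes were called higher, and Fos differed by 0.51 (adjusted p 0.051), Egr2 by 0.14 (0.65), Ier2 by 0.22 (0.43) and Egr1 by 0.14 (0.50). Against the same 4 strains the difference of C1s1 was -5.36 and the collagen median -0.38.

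**Figure D4:**
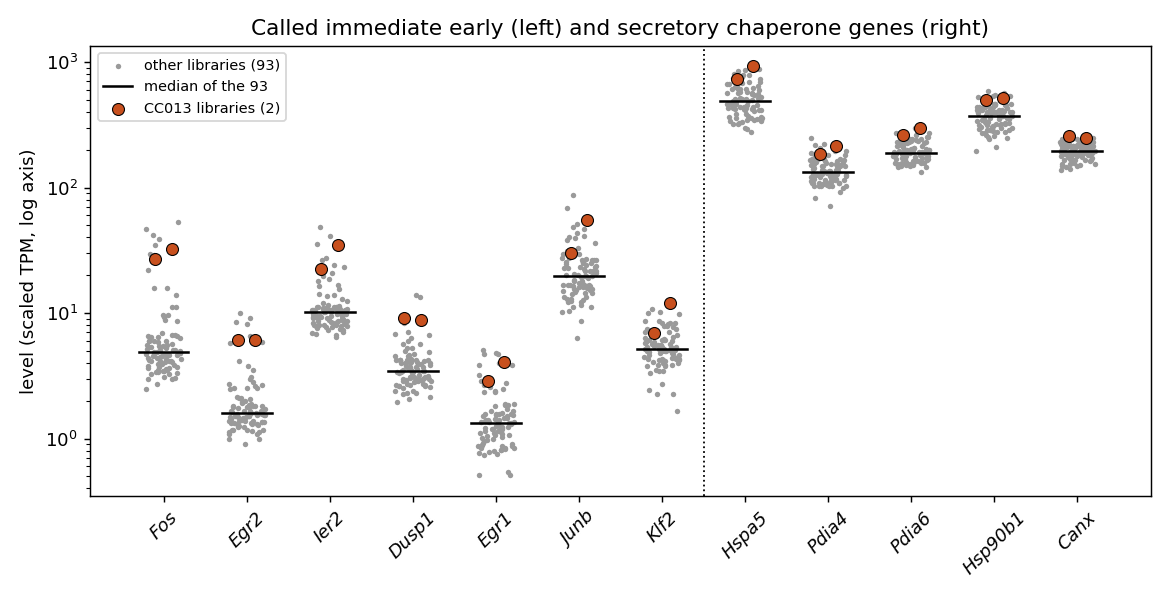
Levels of the 7 immediate early and 5 secretory genes called higher in CC013 (vertical axis, scaled TPM, log scale); grey points are 93 other libraries, black lines their medians and orange points the CC013 libraries. CC013 sits above the median for every gene drawn, and a small cloud of other libraries lies at or above it for Fos, Egr2 and Ier2.

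Chaperones of the endoplasmic reticulum, the compartment in which collagen is folded, were slightly higher. Of 20 secretory and unfolded protein genes, 5 were called higher, where 6.61% of all genes were, all 20 lay above the mean of the others, and the median difference was 0.26. Hspa5, the chaperone BiP, was at 738 and 923 against 279 to 879, median 490.4 (difference 0.71 ± 0.22, adjusted p 0.022), so replicate 2 was above every other library. Pdia6, a disulfide isomerase, was at 261 and 296 against 133 to 295, median 189 (difference 0.53 ± 0.13, adjusted p 0.00257), and Canx, calnexin, at 256 and 249.7 against 138 to 263, median 196 (difference 0.37 ± 0.08, adjusted p 3.9e-04). Pdia4 and Hsp90b1 were the other calls. With unscaled TPM limma called 0 of 20, with 4 higher at an unadjusted p under 0.05, and against the 4 strains with neighbouring numbers it called 0, with 2 higher and 1 lower unadjusted. Without replicate 1, 3 were called, and without replicate 2, 1. In CC074 and CC045 the score was higher than in CC013, at 1.58 and 1.11 against 0.92.

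**Figure D5:**
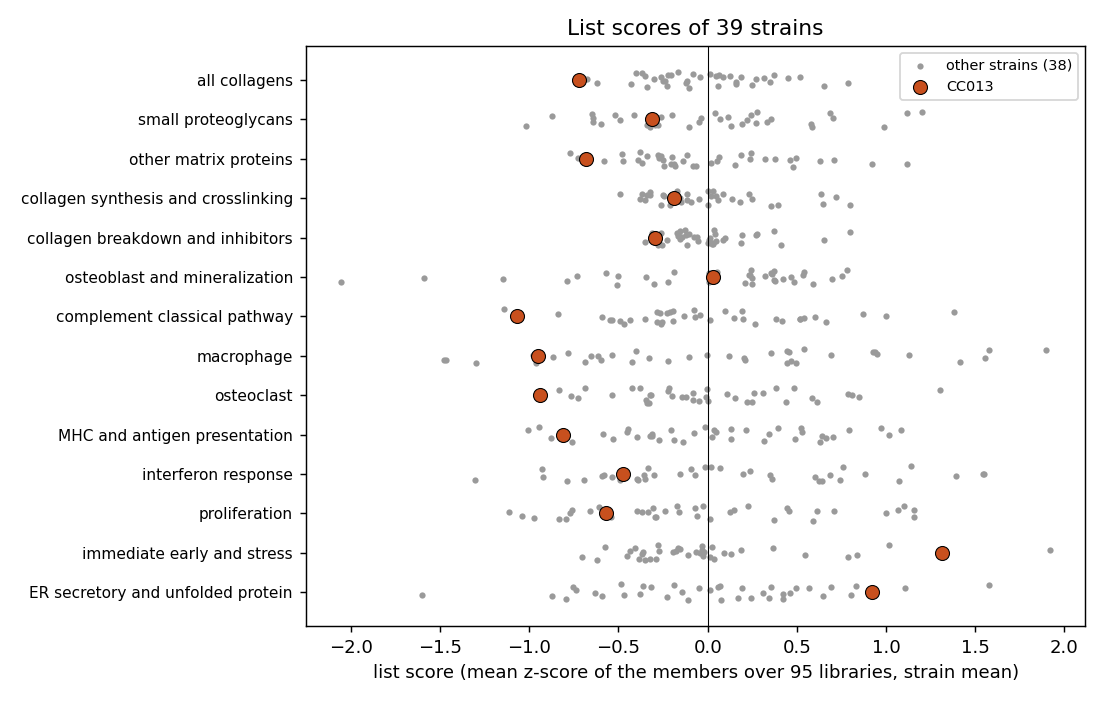
Scores of 14 gene lists in 39 strains (horizontal axis, mean z-score of the members, averaged over the libraries of a strain); grey points are the 38 other strains and the orange point is CC013. CC013 is at the low end for all collagens (-0.72) and osteoclast genes, near the middle for osteoblast genes (0.03) and below CC045 alone for immediate early genes (1.31).

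Of the Wnt, BMP and IGF, and TGF-beta lists, with 23, 22 and 21 genes tested, 1, 4 and 3 genes were called. Over all genes 7.14% were called lower and 6.61% higher, 13.8% in either direction. Sfrp2, a secreted frizzled-related Wnt modulator, was at 12.9 and 22 against 12.5 to 1115, median 111, with 1 other library below both (difference -2.74 ± 0.57, adjusted p 3.2e-04), and was the 1 call among 23 Wnt pathway genes. Of 22 BMP and IGF genes, 2 were called higher and 2 lower. Igf1 was at 9.17 and 7.85 against 7.21 to 45, median 18.3 (difference -1.11 ± 0.23, adjusted p 3.5e-04). Igfbp7 was at 90.4 and 72 against 49.4 to 264.2, median 125.7, and lost its call without replicate 2 (adjusted p 0.33). Grem1, a BMP antagonist, was at 22.9 and 29.3 against 2.7 to 127, median 10.4 (difference 1.22 ± 0.40, adjusted p 0.03), with 91 libraries below both, but lost its call without replicate 1 and without replicate 2 (adjusted p 0.093 and 0.24). Bmp4, the other higher one, did so too (0.14 and 0.22). Of the TGF-beta pathway, 2 of 21 genes were called higher and 1 lower. The higher ones were Ccn1 and Tgif1 (differences 0.87 and 0.47). Their differences were 0.99 and 0.60 without replicate 1, and 0.75 and 0.35 without replicate 2. The lower one, the ligand gene Tgfb3, was at 19.7 and 19.5 against 18.8 to 56.6, median 28.1 (difference -0.54 ± 0.13, adjusted p 0.00218). Of 16 inflammatory secretion genes, 8 lay below the mean of the others and 8 above, and 1, Ptx3, was called, lower. Ptx3, a secreted pattern recognition protein that binds C1q, was at 15.9 and 13.8 against 12.2 to 221, median 48.2 (difference -1.68 ± 0.33, adjusted p 1.3e-04), with 1 other library below both. Of 10 adipocyte genes tested, 2 were called, both lower. Lpl and Pparg, an adipocyte lipase and transcription factor, were at 3.54 and 3.37 and 1.57 and 1.17 against medians of 15.7 and 3.93 (differences -2.10 and -1.13), and both lost their calls without replicate 2 (adjusted p 0.071 and 0.12), Lpl also without replicate 1 (0.061). Limma called 0 of 15 proliferation genes, with 0 at an unadjusted p under 0.05, although all 15 lay below the mean of the other strains (median -0.38).

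Markers of other cell types that a skull cap digest could hold differed from list to list. For comparison, 7.14% of all genes were called lower and 6.61% higher. The summed level of 8 endothelial markers was 0.879 and 0.859, against 0.526 to 3.60, and Tie1 and Cldn5 were listed at 0 in both CC013 libraries. The 8 epidermal markers summed to 1.13 and 1.04 and the 6 erythroid ones to 0.398 and 0.434, against 0.422 to 3.38 and 0.0364 to 2.03, with Hbb-bs and Hbb-bt among those listed at 0 in both CC013 libraries. Limma called 0 of the 9 endothelial, epidermal and erythroid markers that were tested, and 1, an endothelial one, was lower at an unadjusted p under 0.05. The 12 adipocyte markers summed to 11.7 and 14.3, against 12.5 to 281.9, so replicate 1 was below every other library, and Adipoq, Cidec, Lep, Retn and Cfd were listed at 0 in both. Markers listed at 0 do not by themselves set CC013 apart. Adipoq had a median of 0 in the other libraries too, with 35 of them above 0. Only 4 of 8 endothelial, 2 of 6 erythroid and 3 of 10 skeletal muscle markers were high enough in the series to be tested. Of 11 tested chondrocyte genes outside the collagens, 1 was called lower: Sox9, the cartilage transcription factor, at 0.484 and 0.654 against 0.437 to 3, median 1.05 (adjusted p 0.00995), not called without replicate 1 (0.20). The 9 neural and glial markers summed to 52.1 and 49.9, against 29.7 to 72.99, with 83 other libraries below both. Of the 7 tested, 1 was called higher and 1, Mbp, lower (difference -0.75). Of these 7, 4 lay below the mean of the others and 3 above, with a median difference of -0.05. Tubb3, a tubulin gene of neurons, was higher at 9.38 and 8.25 against 0.88 to 9.59, median 3.03 (difference 1.38 ± 0.33, adjusted p 0.00175), but not called without replicate 1 (0.051). The 10 skeletal muscle markers summed to 5.07 and 4.66, against 1.11 to 7.29, with 89 other libraries below both. The score, which covers only the 3 tested markers Tnnt1, Des and Acta1, ranked 38 of 39 strains from the lowest. Acta1 was not called (difference -0.10). Tnnt1, a troponin gene of muscle, was higher at 3.64 and 3.24 against 0.296 to 3.92, median 1.2 (difference 1.25 ± 0.23, adjusted p 5.8e-05). It and Des were called higher among 3 tested muscle genes, Des not without replicate 1 (0.20) or replicate 2 (0.17), while Myod1, Myog, Actc1 and Myh3 were listed at 0 in both CC013 libraries.

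Beyond the lists, 32 genes had both CC013 libraries below every other library (0.203% of genes) and 24 had both above (0.152%). Apart from C1s1, C1ra and Serping1, the most abundant low ones were Olfml2b, S1pr1 and Trpc4ap. Olfml2b, a secreted olfactomedin-domain protein, was at 17 and 15.4 against 19.98 to 67.8, median 34.9 (difference -1.11 ± 0.13, adjusted p 3.2e-09), and S1pr1, a sphingosine-1-phosphate receptor, at 18 and 16.4 against 18.5 to 62.3, median 30.6 (difference -0.80 ± 0.12, adjusted p 1.9e-06). The most abundant high ones were Sdc2, Rnd3, Rcc2, Cd151, Brd2 and Gadd45a. Sdc2, the proteoglycan syndecan 2, was at 126.3 and 125.1 against 21.1 to 115, median 72.3 (difference 0.91 ± 0.17, adjusted p 3.9e-05), and Gadd45a, a DNA damage response gene, at 36.5 and 38.96 against 5.78 to 35.5, median 19.1 (difference 1.01 ± 0.23, adjusted p 0.00102). Brd2 lost its call with unscaled TPM.

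The genes with the largest differences were for the most part copies whose reads are hard to assign. Sharing of sequence or an opposing transcript made 9 of the 12 largest negative differences, untested C1s1 among them, and 10 of the 12 largest positive ones uncertain. Rps6 was at 1245 and 1104 against 4.84 to 1172, median 12.8 (difference 4.77 ± 0.22), but summed with a transcript of unmatched identifier that ran against it, the difference was 0.18. Rps2 was at 29.4 and 46.1 against 20.1 to 2171, median 1289 (difference -3.96 ± 0.14), and 0.35 when summed with Gm6139. Tpm3-rs7 was at 31.5 and 28.5 (difference 2.83 ± 0.11), and 0.07 when summed with Tpm3. Rps13, Rps25, Rpl12, Atp5g2, Gm4737, Hmga1b, Hist1h4m, Hist1h4i, BC023719, Gm13212, Gm13305, Gm25313 and Ly6c1 were marked uncertain by the same rule. Their differences did not all come near 0 when summed with a copy: that of Ly6c1 was -3.56 with Ly6c2, and that of Gm13212 was 2.02 with Zfp984. The direction of Gm25313 rested on replicate 1 (0.012 without it, -5.49 without replicate 2). Ifi202b, an interferon-inducible gene, shared no sequence with another gene and was at 62.8 and 61.5 against 0 to 105, median 25 (difference 2.37 ± 0.23, adjusted p 7.0e-12). Dynap, which also shared none, was at 5.18 and 6.48 against 0 to 17.7, median 0.131 (difference 2.74 ± 0.43, adjusted p 2.7e-06). Egfl6, an EGF-like secreted protein, was at 1.32 and 1.1 against 0.466 to 104, median 8.4, and its call (difference -2.29 ± 0.81, adjusted p 0.046) was lost without replicate 1 and without replicate 2 (0.17 and 0.22) and in 24 of 90 fits without 1 library of another strain.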

How the data were processed

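Total RNA libraries (200 ng input, RNAs above 200 nt, ribosomal RNA removed, per the labels' protocols) of 42 strains were analysed. The authors deposited 1 table of TPM per transcript: each column sums to 1000000, so the values are not counts, whatever the table's name says. Bowtie and mm9 are named in the submitters' processing notes; for the quantification tool a name was not given in the sources used here. TPM keeps no read depth, so the precision of single values is unknown. The build mm9 is one reference strain's sequence, so reads of alleles or copies that differ from it can be lost or placed on a copy; this was not tested.

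Of 94545 transcripts, 91225 matched GENCODE (GRCm38) and were summed to 37945 genes, and 3320 did not match; 1 line named no transcript and was left out. Values under 1e-06 were taken as 0. TPM were divided by a trimmed mean of log ratios per library (genes of mean at least 1 TPM, 30% trimmed by ratio, 5% by level). Genes with at least 0.5 TPM in 2 libraries were fitted in limma 3.58.1 (R 4.3.3, trend of variance on level, 53 residual degrees of freedom) on log2(value + 0.5), with 1 mean per strain, after a check on simulated data. CC013 was compared with the mean over the other strains, each weighted equally; strains of 1 library (3) were left out. The alternatives are in the closing section. A gene was marked uncertain where 20% or more of its 31-base words occur in another gene, or where it ran against a copy or an unmatched transcript over strain means (r of -0.8 or below).

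The strain, the 33 gene lists and the rules were chosen with earlier results of these data known. The rule named the collagen and classical complement genes of at least 5 scaled TPM, the neighbours of C1s1, the 12 largest differences each way among called genes and C1s1 (at least 5 scaled TPM), 6 genes each way outside every other library, and up to 4 called genes per list; other list members were named after their values were seen.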

Additional observations from a re-analysis of the deposited data

How the results depend on the processing

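No paired analysis was possible because the labels carry no replicate numbers. Leaving out 1 CC013 library leaves a lone sample assumed to vary like the other strains. Over the fits that left out 1 library, CC013 or other, genes called lower ran from 389 to 1269 and higher from 478 to 1137, the collagen median from -0.46 to -0.40 and the C1s1 difference from -6.07 to -5.86. Calls in lists ran from 2 to 7 (classical complement, lower), 3 to 13 (macrophage), 3 to 5 (MHC), 4 to 10 (other matrix), 2 to 6 (collagen breakdown), 0 to 4 (osteoclast), 2 to 3 (interferon), 4 to 9 (immediate early, higher) and 1 to 6 (secretory). The lowest counts came without a CC013 library, and no other single library moved a count by over 1.5 times. With a pseudocount of 0.1 the collagen median was -0.55 and the C1s1 difference -7.96, with 1 the latter was -5.04, and with C1s1 and C1s2 summed, -5.66. With a mean of at least 5 TPM, where fewer genes were tested (7710), 422 were called lower and 656 higher, 2 in the osteoclast list and 4 in the immediate early list. Unscaled TPM gave 448 called higher, a collagen median of -0.51 and 0 secretory genes. Against the 4 strains numbered within 50 of CC013, the collagen median was -0.38, the C1s1 difference -5.36, and the immediate early and secretory counts 2 and 0. With the 18 other strains whose own numbers lie within 5 of each other, 2300 were called lower and 2054 higher, the C1s1 difference was -5.73, and the MHC, interferon and secretory counts were 9, 6 and 9. The cause of these shifts was not tested. Of 118 tested genes followed, 48 changed call or direction without replicate 1, 48 without replicate 2, 36 against the 4 nearest-numbered strains, and 49 kept both in all 3. The direction reversed for Gm25313 without replicate 1 (0.012, against -5.49 without replicate 2) and for H2-Ab1 against the nearest-numbered strains (0.26). Protein-coding total scaling, robust estimation, equal weight per library, adding the strains of 1 library, no filter and adjustment over CC013 alone kept every count of calls given here within 1.5 times. Depth is unknown, so a level listed at 0 does not show absence.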
